A study of Mus musculus with 10 samples.

Results

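Open chromatin of epiblast stem cells (EpiSC) was compared with that of mouse embryonic fibroblasts (MEF), the cell type that also served as their feeder layer. The comparison took the autosomal sites of the EpiSC list and of the MEF list, 811959 sites of the 1816946 that the 4 lists of the series hold on all chromosomes. A site was shared where it overlapped a site of the other list by 1 bp or more. The EpiSC list had 387312 autosomal sites and the MEF list 424647. The EpiSC list had no site on the X chromosome, where the MEF list had 7244, so the sex chromosomes were left out.

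FAIRE-seq crosslinks chromatin, shears it and sequences the DNA that stays soluble after phenol extraction, which is poor in nucleosomes and marks promoters, enhancers and other regulatory DNA. EpiSC stand for the primed pluripotent state of the embryo after implantation and depend on FGF and activin signals. Feeder fibroblasts, stopped from dividing, supply matrix and growth factors to such cultures, and DNA of feeder cells left among the stem cells would be sequenced along with theirs. Fibroblasts are mesenchymal cells, and the sites open in them and closed in other cells are mostly distal elements.

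The EpiSC were of the E3 line, expanded on MEF treated with mitomycin C in medium conditioned by MEF with 5 ng/ml FGF2. They were detached from the feeders with dispase 2 days before crosslinking and kept on fibronectin, still in conditioned medium. The MEF came from E16.5 embryos and were grown in serum. Of the further lists, ESC were E14 cells on gelatin without feeders, kept without serum in LIF and inhibitors of GSK3 and MEK, and NSC were ES-derived neural progenitors kept in FGF2 and EGF. All EpiSC had been on feeders, so that feeder contact and the EpiSC state cannot be told apart by design. The source label of the MEF samples names NSC chromatin, while title and cell type name fibroblasts. The MEF list differed from the NSC list, in which 40.6% of its sites lay, against 27.0% in EpiSC and 25.3% in ESC. That cannot settle the label, since the overlap to expect between lists of the same cell type is not known here. Whether fibroblast marker genes were open in it was not examined, since no gene annotation of build mm9 was used here. Each group had 2 samples with 1 list analysed per cell type, so that there is no replicate check and no test between cell types. The intervals in the text are exact 95% intervals and cover the counting of sites alone.

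A minority of each list was shared, and most of the shared sites were open in further cell types. Of the EpiSC sites, 112624 (29.1%, interval 28.9 to 29.2) overlapped a MEF site, and of the MEF sites 114755 (27.0%) overlapped an EpiSC site. The shared bases came to 37.6 Mb, or 21.7% of the bases in EpiSC sites and 22.7% of those in MEF sites. EpiSC sites overlapped the other lists more often, 45.0% of them the ESC list and 38.9% the NSC list. Those lists were larger, with 438802 autosomal ESC sites (225.9 Mb) and 551649 NSC sites (247.5 Mb), against 424647 MEF sites (165.4 Mb). The shares are not adjusted for list length. MEF sites lay in the ESC list nearly as often as in the EpiSC list, at 25.3%. The feeder-free ESC list, in turn, had 24.5% of its sites in MEF, and the NSC list 30.5%.

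The question for the feeders is whether shared sites look like fibroblast sites, that is, lack overlap with both ESC and NSC. They lacked it less often than the rest of the EpiSC list. Of the 112624 shared EpiSC sites, 25400 (22.6%, interval 22.3 to 22.8) lay in neither ESC nor NSC, against 118716 (43.2%, 43.0 to 43.4) of the 274688 sites not shared with MEF. The largest group of shared sites, 42799 (38.0%), was open in all 4 lists, while 14.1% of the sites not shared with MEF lay in both ESC and NSC. A further 23849 shared sites (21.2%) lay in NSC but not in ESC, and 20576 (18.3%) in ESC but not in NSC. Thus 77.4% of the shared sites were also open in ESC, NSC or both. Overlap with those lists does not show from which cells the reads at an EpiSC site came. Shared sites lay in neither list less often on each of the 19 autosomes. The shares ran from 17.2% (chromosome 7) to 26.5% (chromosome 3) for shared sites and from 34.8% (chromosome 8) to 48.0% (chromosome 3) for unshared sites. This order is not particular to MEF, since it held for every pairing of the 4 lists. Of EpiSC sites shared with ESC, 58.6% lay in MEF or NSC, against 44.3% of those not shared with ESC. With NSC as the partner, 70.0% and 49.9% lay in MEF or ESC.

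The same split was then made in the list of ESC, which had no feeders. Of the ESC sites shared with MEF, 24086 of 107321 (22.4%, 22.2 to 22.7) lay in neither EpiSC nor NSC, next to 22.6% for EpiSC. Of the ESC sites not shared with MEF it was 52.7%. In the full lists, sites open in a pluripotent cell type and in MEF alone were therefore about as large a part of the overlap in ESC as in EpiSC. With the other lists cut by score to the length of the EpiSC list, which itself lost no site, this part was larger in EpiSC. The EpiSC sites in MEF were then 28690 in neither further list, 18231 in NSC only, 23093 in ESC only and 31162 in both. The ESC sites in MEF were 22082 in neither, 11055 in NSC only, 23532 in EpiSC only and 31195 in both.

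**Figure D1:**
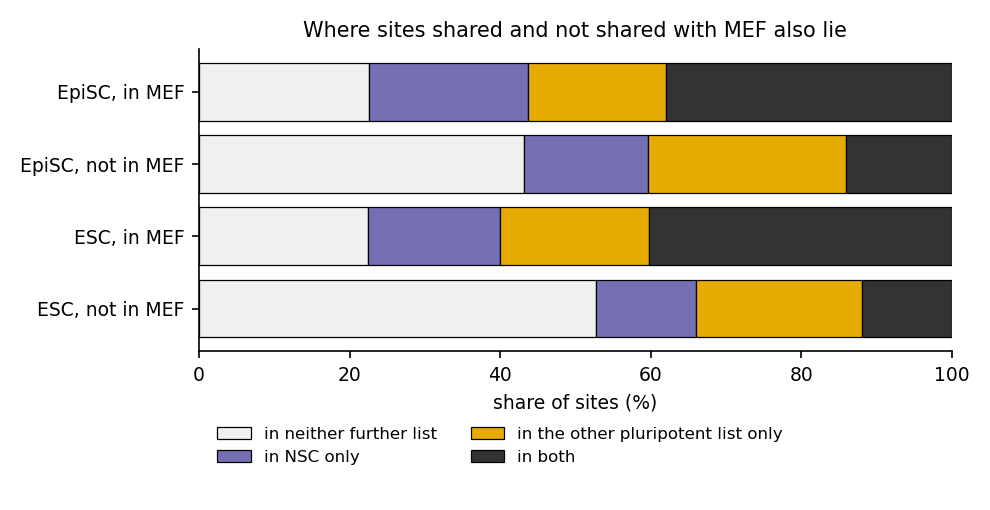
Stacked bars give the share of sites (%, x axis) that lie in neither further list, in NSC only, in the other pluripotent list only or in both, for EpiSC and ESC sites that overlap or do not overlap MEF. The white part is 22.6% for EpiSC and 22.4% for ESC sites in MEF, and 43.2% and 52.7% for sites not in MEF.

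Width entered into these shares, because a wide site overlaps others more easily. Shared EpiSC sites had a median width of 408 bp, against 316 bp for the others, and sites open in all 4 lists 630 bp. The 25400 EpiSC sites shared with MEF alone were narrow, with a median of 301 bp (quartiles 214 and 413), and stood closer to the EpiSC sites of no other list (275 bp). Within every class of width, from sites up to 150 bp to sites over 2000 bp, the share in neither ESC nor NSC was lower for sites shared with MEF. It was 41.2% against 59.3% up to 150 bp, 24.6% against 39.5% between 350 and 500 bp, and 2.10% against 7.28% between 1000 and 2000 bp. Of the 3427 shared sites over 2000 bp, 8 lay in neither list. The overlap with MEF itself rose from 18.6% of the narrowest to 74.8% of the widest EpiSC sites.

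**Figure D2:**
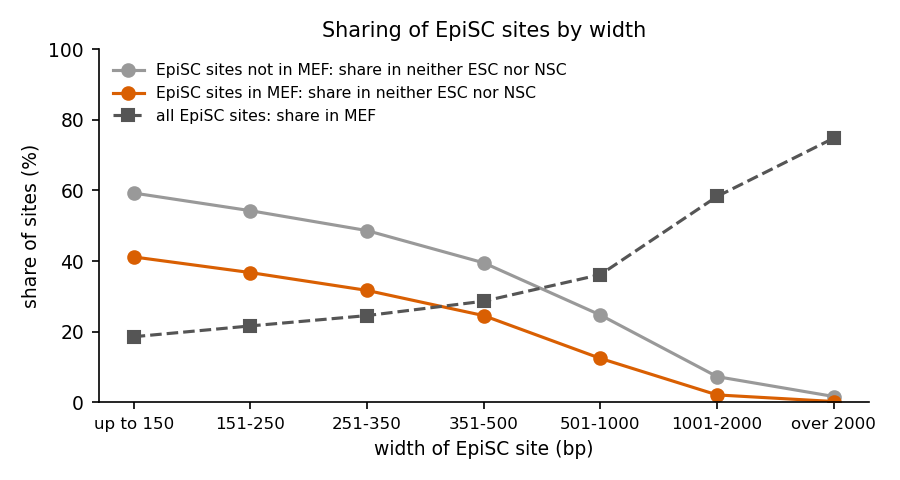
Shares of EpiSC sites (%, y axis) are plotted by class of width in bp. In every class the line of sites in MEF lies below that of sites not in MEF, at 41.2% against 59.3% up to 150 bp and 2.10% against 7.28% from 1000 to 2000 bp.

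Next the EpiSC were set beside ESC at equal openness elsewhere. For sites open in both pluripotent lists, the share in MEF was nearly the same from either side: 22.2% of EpiSC and 22.5% of ESC sites where NSC had no site, and 52.5% and 52.1% where it had one. These are largely the same places counted from each list, so that near equality was given by construction and compares nothing. Only sites not shared between EpiSC and ESC can differ, and there the shares did. Where NSC had no site, 17.6% (17.4 to 17.8) of such EpiSC sites lay in MEF, against 12.1% (11.97 to 12.26) of such ESC sites. Where NSC had one, the shares were 34.5% and 29.9%. The ESC, MEF and NSC lists were then cut to their 387312 sites with the highest scores, the length of the EpiSC list, which lost no site. This gave 16.8% and 11.9% in the first case and 35.0% and 30.9% in the second. With NSC in the place of MEF the difference was of like size, since 27.6% of the EpiSC sites in neither ESC nor MEF lay in NSC, against 20.2% of the ESC sites in neither EpiSC nor MEF, or 19.3% and 13.1% with the shortened lists. The excess of EpiSC over ESC was thus measured for neural progenitors as well as for fibroblasts.

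The MEF list gives the view from the fibroblast side. It held 207641 sites that lay in neither ESC nor NSC, and 25593 of them (12.3%, 12.2 to 12.5) were shared with EpiSC. Of the 205855 MEF sites in neither EpiSC nor NSC, 23807 (11.6%, 11.4 to 11.7) were shared with ESC. Of the 266955 in neither pluripotent list, 84907 (31.8%) were shared with NSC. A total of 182048 MEF sites, 42.9% of the list, were in no other list. The fibroblast sites that EpiSC lacked thus far outnumbered those they shared.

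The score that the authors gave each site ranks the sites within a list. Along the MEF score the share found in EpiSC fell over the lower deciles and that found in ESC fell more steeply. Among MEF sites in neither ESC nor NSC, the share in EpiSC was 16.6% in the decile with the lowest MEF scores, 10.4% in decile 5 and 10.5% (10.0 to 10.9) in the highest. Among MEF sites in neither EpiSC nor NSC, the share in ESC went from 27.6% in the lowest through 9.22% in decile 5 to 5.18% (4.88 to 5.49) in the highest. The share in NSC was 29.0% in the lowest and 38.1% in the highest decile. Strong fibroblast sites were hence found more often in EpiSC than in ESC, and far more often in NSC. Widths varied along the score without a steady trend, with medians of 366 bp in the lowest decile and 272 bp in the highest of the sites set against EpiSC. At a MEF width of 250 to 350 bp the share went from 15.0% in the lowest to 8.04% in the highest decile in EpiSC and from 24.6% to 3.34% in ESC, and with lists of equal length the highest decile gave 11.5% and 5.96%.

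NSC sites showed a similar pattern. In the decile with the highest NSC scores, 12.5% (12.2 to 12.9) of the sites in neither ESC nor MEF lay in EpiSC, and 5.71% (5.45 to 5.98) of those in neither EpiSC nor MEF lay in ESC. In the lowest decile these shares were 17.3% and 29.5%. In the highest NSC decile the EpiSC share was thus above the ESC share, and in the lowest below it.

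**Figure D3:**
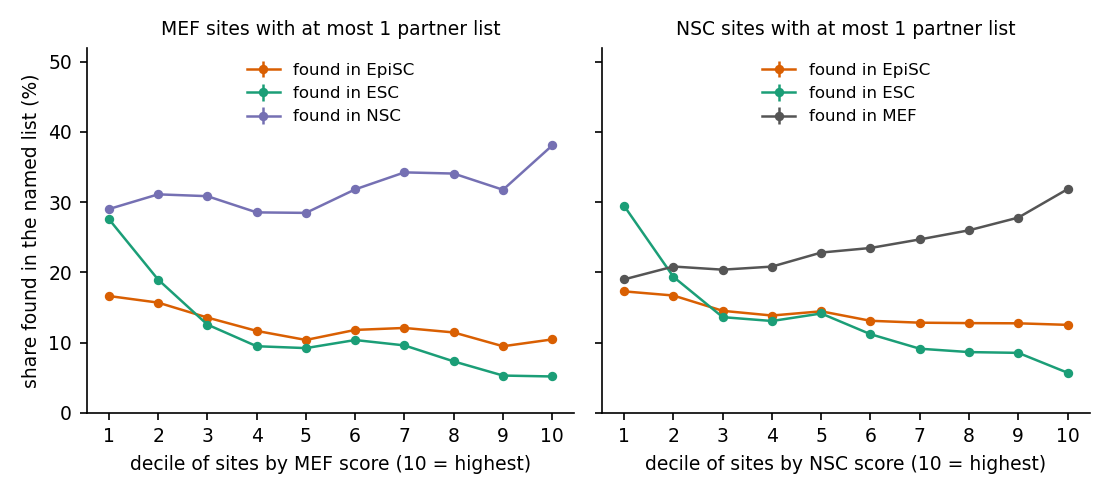
The share of sites (%, y axis, with exact 95% intervals) found in 1 named list is plotted by decile of the score of the MEF list (left) or the NSC list (right), each for sites absent from the 2 remaining lists. In the highest decile, EpiSC lie at 10.5% and ESC at 5.18% for MEF sites, and at 12.5% and 5.71% for NSC sites.

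At the very top of the MEF list the contrast was wider. Of the 100 MEF sites with the highest scores, 21 (interval 13.5 to 30.3%) were open in EpiSC and in no other list, 20 in NSC and in no other list, and 41 in no other list. In ESC alone it was 0 of 100, which allows up to 3.62% by the exact interval and 3% by the floor of 3 counts. Of the highest 1000, 68 (6.80%) were in EpiSC alone and 7 (0.700%) in ESC alone, and of the highest 10000, 493 (4.93%) and 150 (1.50%). Over the whole MEF list, 6.03% were in EpiSC alone, 5.61% in ESC alone and 19.99% in NSC alone. The share in EpiSC alone was thus above that of the whole list in the highest 100 and below it in the highest 10000. In the NSC list, 8 of the highest 100 and 50 of the highest 1000 were in EpiSC alone, against 1 and 10 in ESC alone. Over the whole NSC list it was 7.80% and 7.29%. Seen from the EpiSC list, MEF led at the very top. Of the 100 EpiSC sites with the highest scores, 24 (interval 16.0 to 33.6%) were in MEF alone, 5 in ESC alone and 2 (0.243 to 7.04%) in NSC alone. Of the highest 1000 it was 102 in MEF alone, 85 in ESC alone and 74 in NSC alone. Among the highest 10000 the order turned, with 6.82% in MEF alone, 9.15% in ESC alone and 10.04% in NSC alone. Over the whole EpiSC list it was 6.56% in MEF alone, 18.62% in ESC alone and 11.67% in NSC alone. The 21 MEF sites in EpiSC alone lay in 21 windows of 100 kb on 10 chromosomes, 8 of them on chromosome 7. Chromosome 7 also held 11 of the 41 sites in no other list and none of the 20 in NSC alone. Of the 21, 3 were under 150 bp wide.

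Pairs of overlapping sites that were high in both lists were then counted. Among EpiSC-MEF pairs, 1942 had both scores at or above the 95th percentile of their list, and in 177 of these (9.11%) neither site overlapped ESC or NSC. Among EpiSC-NSC pairs, 258 such pairs (11.99%) of 2151 touched neither other list, and among EpiSC-ESC pairs 416 (8.75%) of 4756. Among MEF-ESC pairs it was 9 (0.435%) of 2067, and among ESC-NSC pairs 38 (2.29%) of 1662. The MEF-NSC pairs had most, 971 (34.05%) of 2852. At the 99th percentile there were 42 EpiSC-MEF pairs of this kind (18.9% of 222, interval 13.99 to 24.7%), in 36 windows of 100 kb on 12 chromosomes. EpiSC-NSC had 34 (14.3% of 237, interval 10.1 to 19.5%), EpiSC-ESC 47 (8.70% of 540) and MEF-NSC 109 (33.7% of 323), while MEF-ESC and ESC-NSC had 1 each. EpiSC-MEF thus lay below EpiSC-NSC at the 95th percentile and above it at the 99th, where the intervals overlapped. The EpiSC counts of such pairs lay above the ESC counts for either somatic partner. Among all pairs at the 95th percentile, MEF-ESC had more than EpiSC-MEF, while ESC-NSC had fewer than EpiSC-NSC. At the 99th percentile MEF-ESC had fewer than EpiSC-MEF (190 against 222), and ESC-NSC again fewer than EpiSC-NSC (162 against 237). Leaving out pairs that touch a further list takes more from ESC. Of the 10000 ESC sites with the highest scores 84.7% lay in EpiSC, against 53.8% of the highest EpiSC sites in ESC. Whether DNA of feeder cells is part of the sites shared with MEF alone was not tested.

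Across the pairs that touched no further list, EpiSC and MEF scores had a Spearman correlation of 0.32 over 22516 pairs, beside 0.33 for EpiSC-NSC, 0.30 for MEF-NSC, 0.21 for EpiSC-ESC, 0.14 for ESC-NSC and 0.12 for MEF-ESC. These describe pairs within single lists, which share whatever local coverage and mappability the libraries have in common. The midpoints of these EpiSC-MEF pairs lay a median of 108.5 bp apart, between the 103 bp of EpiSC-NSC and the 135.5 bp of MEF-ESC pairs, which were the lowest and highest of the 6 pairings. The overlap filled a median of 89.05% of the shorter site, the lowest of the 6, next to 89.17% for MEF-ESC and 91.35% for MEF-NSC, with EpiSC-ESC highest at 98.8%. EpiSC sites shared with MEF alone had a median EpiSC score of 2.96 (quartiles 1.99 and 4.58), above the 2.61 of EpiSC sites in no other list and below the 4.47 of sites in all lists. Their share rose with the EpiSC score, from 11.9% in the lowest decile of the EpiSC sites in neither ESC nor NSC to 22.3% in the highest. For ESC sites in neither EpiSC nor NSC the share in MEF rose likewise, from 6.18% to 15.6%. Sites shared with MEF alone were therefore not gathered at the weak end of the EpiSC list.

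The sites of this kind with the highest scores are given in mm9 coordinates. In the EpiSC list the first was chr8:125950195-125952657, with a score of 144 or 49.8 times the list median. There 2 MEF sites overlapped it with scores up to 10.4. The second, chr8:86148694-86149006 (score 51.6), was also the third of the MEF list, as chr8:86148786-86149163 with a MEF score of 27.0. The third EpiSC site was chr8:15438046-15438896, with a score of 51.4 and a MEF site of 15.0. In the MEF list the first was the 57-bp site chr7:66931918-66931974 (score 34.8), met by an EpiSC site of 18.3. The second was chr8:3374434-3375043 (27.2), with an EpiSC site of 40.6 whose start lay 315 bp and whose end lay 14 bp from its own. Other pairs stood high in both lists, and those with close edges are given first, a choice made after their values were seen. At chr9:103359363-103359775 the EpiSC site (27.2) and the MEF site (25.3) began 13 bp and ended 11 bp apart, and at chr10:7233941-7234063 the EpiSC site (36.0) and the MEF site (19.7) began 14 bp and ended 4 bp apart. Pairs that ranked above these had edges further apart. At chr14:52002655-52004422 the EpiSC site (40.1) and the MEF site (25.4) began 551 bp and ended 95 bp apart. At chr4:140986917-140987648 the EpiSC site (32.8) and the MEF site (23.7) began 44 bp and ended 173 bp apart. Scores of different lists have no stated common scale, and no difference is drawn between them.

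Among sites of all 4 lists, whose median scores were above those of sites shared by EpiSC and MEF alone (4.47 against 2.96 in EpiSC, 3.68 against 3.04 in MEF), the highest EpiSC scores were 34.4 at chr17:53684685-53685020, 32.6 at chr4:117965584-117965843 and 29.2 at chr4:57556701-57557288. The MEF sites there had 6.10, 10.9 and 17.8. The highest MEF scores were 21.7 at chr8:50398077-50398642, 21.3 at chr4:120487849-120488637 and 20.9 at chr4:13348587-13349045, with EpiSC sites of 10.9, up to 11.2 and 21.4. The strongest MEF sites of no other list were chr4:149131438-149131499 (35.0), chr7:54861673-54861883 (30.7) and chr7:54839015-54841205 (27.3), so that EpiSC lacked some of the strongest fibroblast sites. The density of EpiSC sites was 1.23 times its autosomal median on chromosome 4 and 0.76 times on chromosome 7.

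By chromosome, the fibroblast sites found in EpiSC followed the density of the EpiSC list. The share of MEF sites in neither ESC nor NSC that was found in EpiSC was lowest on chromosomes 12 (7.78%) and 18 (7.94%), where the EpiSC density was 0.68 and 0.70 times its autosomal median. It was highest on chromosome 11 (18.2%), where the density was 1.76 times the median. Across the 19 autosomes the Spearman correlation of share and density was 0.90. For ESC the share ran from 7.32% on chromosome 3 to 17.9% on chromosome 8, with a correlation of 0.83 with the ESC density. These are descriptions over chromosomes of single libraries, in which the share and the density come from the same sites. EpiSC exceeded ESC by this share on 14 of the 19 autosomes. By the share of its own sites that lay in MEF, EpiSC exceeded ESC on all 19, with 25.8% (chromosome 14) to 33.2% (chromosome 7) against 21.3% (chromosome 8) to 29.0% (chromosome 11).

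**Figure D4:**
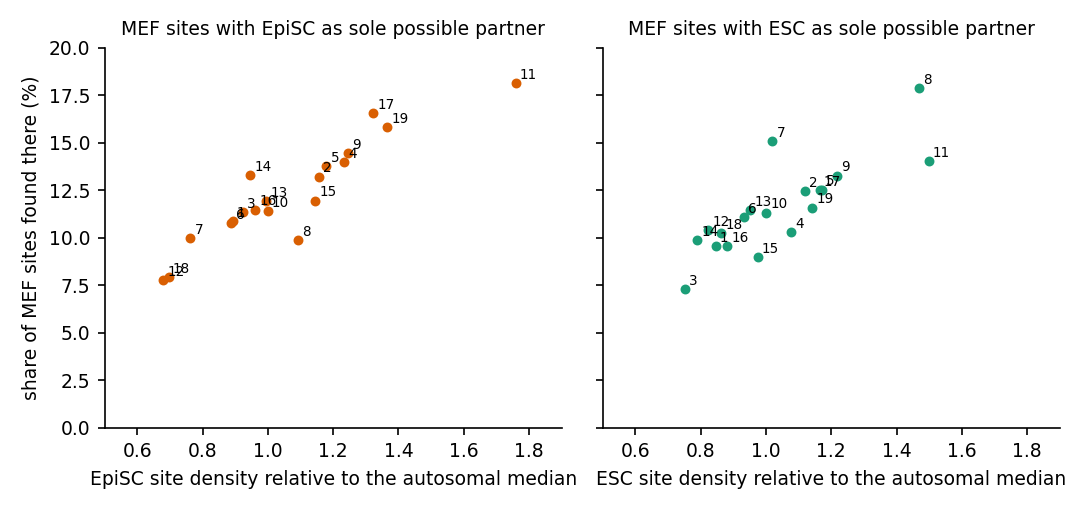
Each point is an autosome, labelled with its number: the share of MEF sites absent from the 2 remaining lists that was found in EpiSC (left) or ESC (right) is plotted against the density of that list relative to its autosomal median. Chromosome 11 is highest for EpiSC at 18.2% and chromosome 8 for ESC at 17.9%.

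Windows of 100 kb were used to look at whole fibroblast domains. In the 798 windows with 20 or more MEF sites and at most 10 NSC sites, EpiSC had a median of 11 sites (quartiles 6 and 19) and ESC 5 (2 and 17), whereas over all 23717 windows with a site the medians were 14 and 12. EpiSC had more sites than ESC in 67.5% of these windows and fewer in 27.2%, against 48.4% and 44.9% of all windows. Of the MEF sites in them, 17.8% lay in EpiSC and 13.8% in ESC, both below the 27.0% and 25.3% of all MEF sites. In the 990 windows with 20 or more NSC sites and at most 10 MEF sites, EpiSC also had a median of 11, and ESC had 7 (2 and 29). EpiSC had more sites than ESC in 53.7% of these and fewer in 40.2%. Without distal chromosome 14, 904 such windows remained, with medians of 13 for EpiSC and 9 for ESC. There EpiSC had more sites in 52.65% and fewer in 41.81%, closer to the shares of all windows. The tilt to EpiSC was thus seen in both kinds of somatic window and was wider in those of fibroblasts. Windows with 30 or more MEF and at most 15 NSC sites gave medians of 14 for EpiSC and 7 for ESC.

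**Figure D5:**
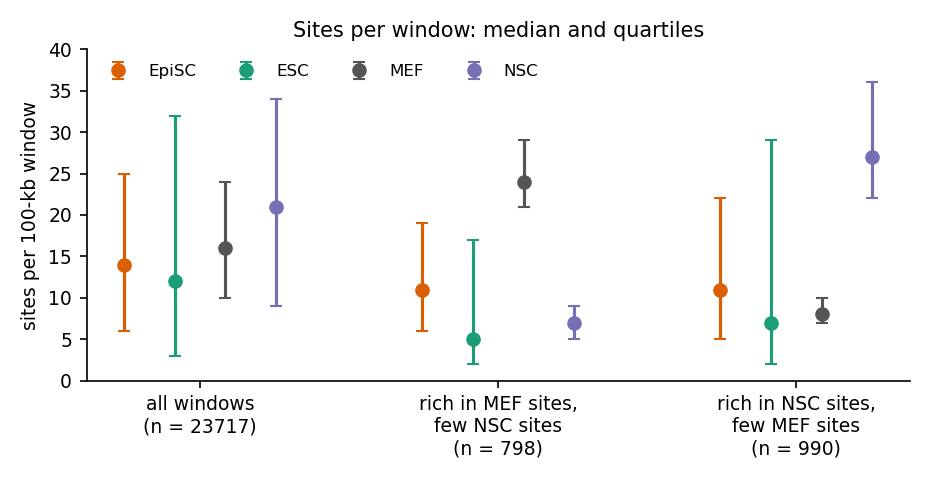
Points give the median and bars the quartiles of the number of sites per 100-kb window in each list, for all windows, windows rich in MEF sites with few NSC sites, and windows rich in NSC sites with few MEF sites. In the middle group EpiSC lie at 11 and ESC at 5, in the right group at 11 and 7.

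Single windows showed how shared and private fibroblast sites were mixed. The window with the most EpiSC sites shared with MEF alone, chr17:75600001-75700000, held 27 EpiSC, 59 MEF, 9 ESC and 8 NSC sites. Of its EpiSC sites 19 were shared with MEF, 15 of them with MEF alone, while 34 of its MEF sites were in no other list. The next, chr17:83500001-83600000, had 55 EpiSC and 43 MEF sites with 14 EpiSC sites shared with MEF alone, and chr4:64800001-64900000 had 31 and 65 with 13. In the last of these, ESC had 2 sites and 36 MEF sites were in no other list. The windows with the most shared sites of any kind were open in other cells too: chr11:96100001-96200000 had 40 shared among 75 EpiSC sites and 53 ESC sites, chr9:96600001-96700000 had 38 shared among 51, and chr11:96600001-96700000 had 36 among 60. Dense fibroblast windows without any EpiSC site were chr13:12900001-13000000 with 36 MEF sites, chr12:10000001-10100000 with 32 and chr7:101900001-102000000 with 28. EpiSC sites were sparse over the whole of chromosomes 12 and 7, at 0.68 and 0.76 times the autosomal median density, but not of chromosome 13 (0.99 times). These windows were the densest of their kind. In the same order, ESC had 4, 1 and 0 sites in them and NSC 21, 9 and 5.

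Isolation from other open sites was measured as the distance to the nearest site. EpiSC sites shared with MEF alone lay a median of 1882 bp from the nearest ESC site and 1321 bp from the nearest NSC site. EpiSC sites in no other list lay 1847 and 1698 bp away. Within 1 kb of an ESC site lay 34.9% of the former and 35.3% of the latter, and within 1 kb of an NSC site 42.7% and 35.9%. The sites shared with MEF alone were thus about as near to ESC sites as those of EpiSC alone, and nearer to NSC sites.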

How the data were processed

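FAIRE-seq had been done on 2 samples each of EpiSC, MEF, ESC, NSC and a genomic control; 1 list per cell type, filed with replicate 2, was analysed, and the 6 other samples were not analysed here. Reads came from CASAVA 1.8 and positions refer to mm9, per the submitters' processing notes. The score of each site was computed by the authors, and the display value deposited beside it is within 1 of 100 times the score capped at 1000. Not given in the sources used here are the aligner, the thresholds, the use of the control and any pooling. Read depth is unknown.

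Intervals were taken as 0-based and half-open, printed 1-based and limited to the 19 autosomes. Overlap was computed with numpy 2.4.6, scipy 1.17.1 and pandas 2.3.3 under Python 3.11.15, with counts identical to those of bedtools 2.31.1, and tested on simulated data. Figures used matplotlib 3.10.9. Shares carry exact Clopper-Pearson intervals at 95%, and the floor for a count of 0 is 3 counts. Sites were counted in windows by midpoint. Deciles are equal parts of the sites ranked by score within a list.

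Named by rule were the 3 highest-scoring sites of each list shared by EpiSC and MEF alone, shared by all lists or, for MEF, private, and the 3 windows with most sites of each kind named in the text. The comparison and these rules were chosen with earlier results of these data known; windows rich in MEF or NSC sites, pairs high in both lists and the split by NSC score were chosen after the data were seen. No gene is named and no sequence printed, since the reference tables at hand are on another build. Alternatives were a stricter overlap, the upper 50% of scores, equal length, merging, fixed width and leaving out chromosomes.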

Additional observations from a re-analysis of the deposited data

How the results depend on the processing

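No paired analysis was possible because a single list per cell type was analysed, which also left no replicate to omit. Depth is unknown, so that a longer list may be a deeper one. Of the 6 main shares under 8 alternatives, 38 values left the narrow counting interval and 10 stayed in it. In all 8 alternatives, EpiSC sites shared with MEF lay in neither ESC nor NSC less often than unshared ones, and MEF sites in no further list were found in EpiSC more often than in ESC, over all such sites and in the decile with the highest MEF score. Fewer or narrower sites lower overlap by construction; otherwise the cause was not tested. Leaving out chromosome 8 or 11 was chosen after the data were seen.

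Values are given in the order EpiSC sites in MEF, MEF sites in EpiSC, shared EpiSC sites in neither ESC nor NSC, unshared ones in neither, MEF sites of no further list in EpiSC, and the same in ESC. An overlap of 50% of the shorter site gave 24.7%, 23.0%, 24.7%, 47.8%, 10.4% and 9.67%. The upper 50% of scores gave 21.1%, 19.3%, 27.5%, 54.6%, 8.63% and 6.94%. Lists of equal length gave 26.1%, 26.3%, 28.4%, 49.5%, 13.3% and 10.4%. Sites of 250 to 350 bp gave 24.6%, 21.9%, 31.7%, 48.6%, 11.7% and 10.5%. Merging sites under 200 bp apart gave 29.5% of EpiSC sites in MEF, 27.3% of MEF sites in EpiSC and 43.8% of unshared EpiSC sites in neither. Without chromosomes 7, 12 and 18, where EpiSC sites are few, 28.9% of EpiSC sites lay in MEF and 27.9% of MEF sites in EpiSC, 22.9% of shared sites lay in neither, and 12.9% of MEF sites of no further list lay in EpiSC. Without chromosome 8 43.7% of unshared EpiSC sites lay in neither and 11.2% of MEF sites of no further list lay in ESC. Without chromosome 11 all but the share of shared sites in neither moved, to 28.8%, 26.2%, 43.5%, 11.98% and 11.4%.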
